A study of Homo sapiens with 12 samples.

Results

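The proteasome is the protease complex that degrades ubiquitin-tagged proteins, and its messenger RNAs were followed here through the free, monoribosomal and polyribosomal fractions of WT and CBFB_KO MCF10A cells. The members were chosen by name, as every gene whose symbol begins with PSMA to PSMG followed only by a number, after the gene identifiers in the tables had been matched to symbols. Of 56632 genes in each table, 47 were members, and 45 of them passed the filter on low counts among 16275 genes tested. The remaining 2 were PSMA8, a testis form of an alpha subunit, and PSMB11, a thymus form of a catalytic subunit. Both had 0 counts in all 12 libraries, where a count of 0 allows up to 3 counts. PSMB3, a beta subunit of the core, had no identifier that could be matched to its symbol and was not analysed here.

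MCF10A is an immortalised human breast epithelial line that does not form tumours. WT cells were the parental line and CBFB_KO cells had lost CBFB, the non-DNA-binding partner of the RUNX transcription factors, through CRISPR editing, with lines grown out from single-cell colonies, so the knockout may stand for few clones. Cells of both genotypes had received cycloheximide, an inhibitor of elongation that holds ribosomes on mRNA, at 100 µg/ml for 30 min, and lysates had been spun through linear 10 to 50% sucrose gradients. The free fraction holds mRNA without ribosomes, the mono fraction mRNA with a single ribosome, and the poly fraction mRNA with several. There were 2 libraries for each of 6 groups (WT free, WT mono, WT poly, CBFB_KO free, CBFB_KO mono and CBFB_KO poly), and the comparisons asked where in the gradient these mRNAs lay and whether loss of CBFB moved them.

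As background, the 20S core of the proteasome is a barrel of stacked rings. The outer rings are built from alpha subunits (PSMA genes), which gate the entry, and the inner rings from beta subunits (PSMB genes). PSMB5, PSMB6 and PSMB7 encode the subunits that cut the substrate, and PSMB8, PSMB9 and PSMB10 their inducible counterparts in the immunoproteasome. The 19S regulator recognises and unfolds substrates with a ring of ATPases (PSMC genes) and a set of non-ATPase subunits (most PSMD genes). PSME genes encode other activators, PSMF1 an inhibitor, PSMG genes the chaperones that assemble the core, and PSMD5, PSMD9 and PSMD10 chaperones that assemble the 19S base. Every mature particle carries its core subunits in equal numbers.

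Library totals ran from 41050325 to 63886726 estimated reads on genes. The CBFB_KO free libraries differed from all others in composition. Mitochondrially encoded RNAs took 71.6% and 87.2% of their counts, against 11.1% and 20.8% in WT free and 8.08% or less in the mono and poly libraries, which left 13568143 and 5247878 counts outside the mitochondrial genome. The 2 CBFB_KO poly libraries lay unusually close together, with a mean chi-square of 1.78 per member against 83 or more in every other group, slightly more than sampling noise alone, and were kept as 2 samples. The labels do not say whether libraries of a group came from separate cultures, so p-values measure only the spread between these samples. CBFB mRNA itself had a level of 2.31 and 2.76 in WT poly and 1.45 and 1.62 in CBFB_KO poly. In the free fraction its level was 2.17 and 5.10 in WT and 4.58 and 5.68 in CBFB_KO. CBFB did not pass the test in any fraction (log2 change 0.49 ± 0.43 SE in free, -0.71 ± 0.43 in mono and -0.72 ± 0.43 in poly; adjusted p = 0.373, 1.0 and 1.0). An edited gene can still be transcribed, so these values do not check the labels. All 9 MCF10A markers examined passed the filter, with KRT5 at levels of 185 to 1722. Some varied widely between libraries. TP63 (0.239 to 54.5, median 1.59) and EGFR (0.272 to 56.3, median 1.74) were low in most libraries. KRT14 ran from 1.02 to 99.5, with a median of 13.85. PECAM1, a marker of endothelium, had no matched identifier. PGR and PTPRC, which mark luminal hormone-responsive cells and leukocytes, had 0 counts in all libraries. ESR1, another marker of hormone-responsive cells, had levels of at most 0.627 (up to 69 counts), and COL1A1, of fibroblasts, at most 1.23 (up to 320 counts).

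A level below is the TMM-scaled CPM (count scaled to a common library size) divided by the effective gene length in kilobases that RSEM estimated, so levels can be set side by side between genes and libraries. Each library was scaled to its own content, with TMM factors from 0.241 (CBFB_KO free replicate 2) to 1.80 (WT poly replicate 2). A level is therefore relative to the other genes of a library, and is neither a share of its counts nor an amount of mRNA. In bulk RNA, fewer cells with a transcript and less transcript per cell cannot be told apart. A change is the log2 change of edgeR's quasi-likelihood fit over all 12 libraries, with its standard error (SE), and a gene was called where the adjusted p over all 16275 genes was under 0.05.

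Proteasome mRNAs took up a larger share of polyribosomal RNA than of the lighter fractions. Of the counts outside the mitochondrial genome, the members held 0.275% and 0.271% in the WT free libraries, 0.363% and 0.364% in WT mono, and 0.771% and 0.783% in WT poly. The CBFB_KO libraries held 0.427% and 0.372% in free, 0.365% and 0.364% in mono, and 0.757% and 0.756% in poly. All 4 poly libraries thus lay above all 8 others. The genotypes nearly coincided in mono, CBFB_KO lay above WT in free, and WT lay slightly above CBFB_KO in poly. The order in free depended on the denominator and on PSME3. Of all counts, mitochondrial ones included, the members held 0.121% and 0.048% in CBFB_KO free and 0.244% and 0.215% in WT free. PSME3, an activator, supplied 33.1% and 29.4% of the members' counts in CBFB_KO free and 3.81% and 8.63% in WT free. Without PSME3, left out after its values were seen, the shares outside the mitochondrial genome were 0.286% and 0.262% in CBFB_KO free and 0.264% and 0.248% in WT free, which overlap. The bars of counts by library show this order.

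**Figure D1:**
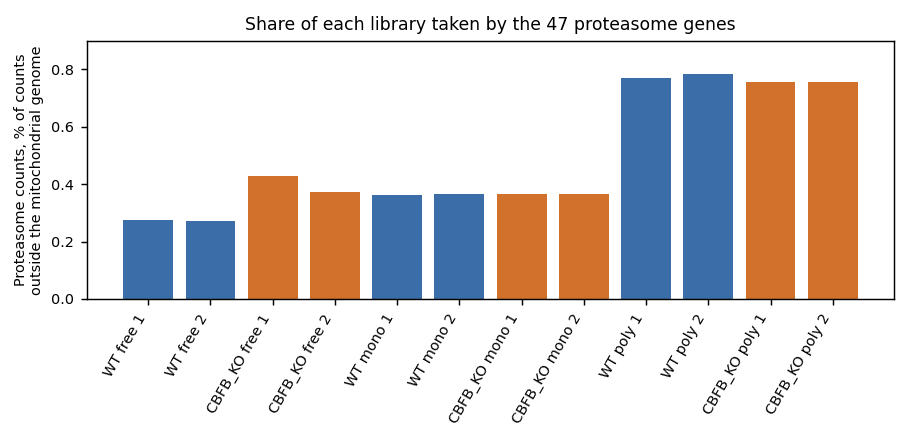
Share of each library taken by the 47 proteasome genes, in percent of the counts outside the mitochondrial genome (vertical axis), for each of the 12 libraries (horizontal axis, blue WT, orange CBFB_KO; each bar is 1 library). The 4 poly libraries lie between 0.756% and 0.783%, all above the free and mono libraries, which lie between 0.271% and 0.427%.

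The members did not share one level, although the particle holds most of them in equal numbers. In WT poly the mean level ran from 3.05 for PSMD12, a non-ATPase subunit of the 19S lid, to 472 for PSMB4, a non-catalytic beta subunit, a range of 154.9-fold. Among the catalytic subunits the range in WT poly was 1.75-fold, from 215 for PSMB7 to 377 for PSMB5. The alpha subunits spanned 12.6-fold in WT poly, from 20.3 for PSMA4 to 255 for PSMA7. The ATPases spanned 43.7-fold in WT poly, from 3.82 for PSMC6 to 167 for PSMC3. In CBFB_KO poly the same genes stood at both ends of each of these groups, with 3.28 for PSMD12 and 475 for PSMB4, and 23.6 for PSMA4 and 265 for PSMA7. Immunoproteasome members differed by 20.8-fold in WT poly, with PSMB9 at a level of 3.36 and PSMB10 at 69.9.

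**Figure D2:**
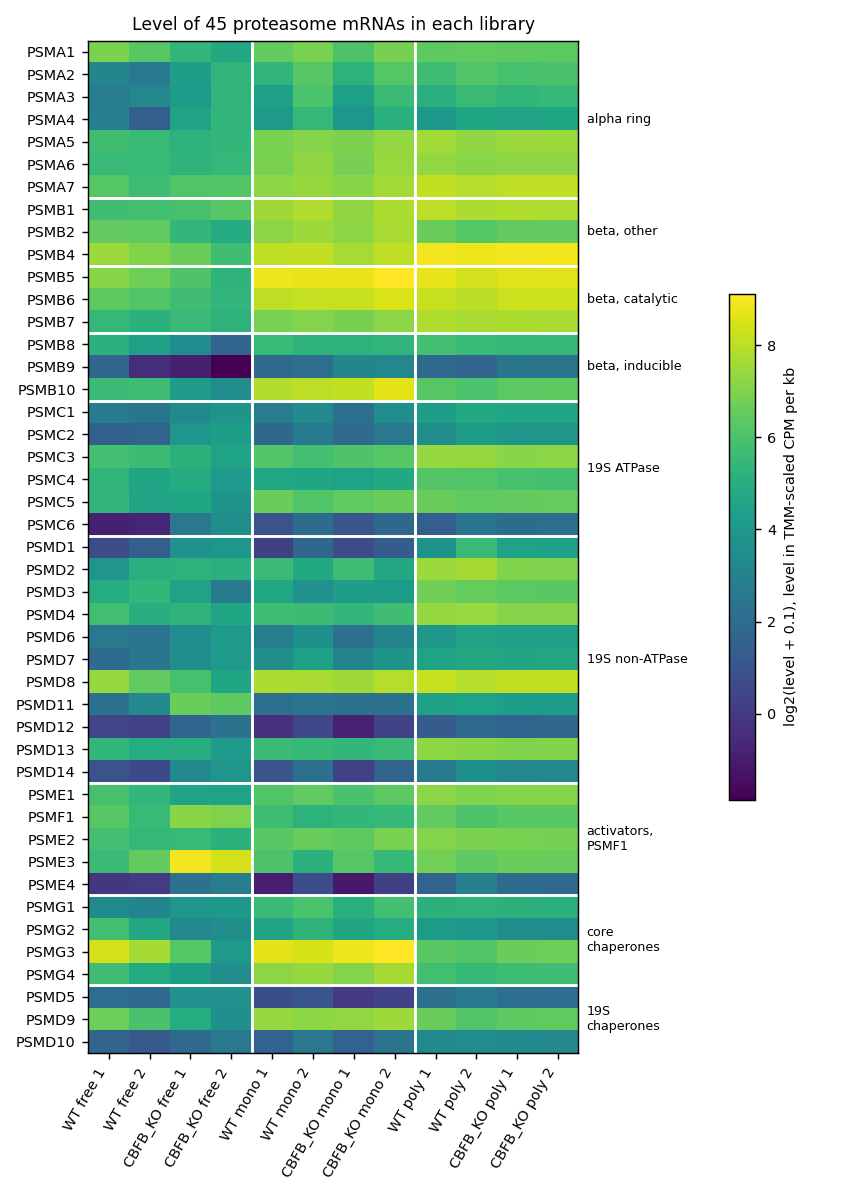
Level of the 45 proteasome mRNAs that passed the filter (rows, grouped by role) in each of the 12 libraries (columns), as the color of log2(level + 0.1), with the level in TMM-scaled CPM per kilobase. Core beta rows such as PSMB4 and PSMB5 are bright in mono and poly, PSMB9, PSMC6, PSMD12 and PSME4 are dark in most libraries, and the rows of PSMD11 and PSME3 are brightest in CBFB_KO free.

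WT cells carried most proteasome mRNAs at a higher level in poly than in free RNA. Of the 45 members tested, 29 were higher in poly (14.0% of all genes tested were) and 1 was lower (7.99% of all genes were), and 40 of 45 had a change above 0. The median change of the members was 1.63, against 0.08 over all genes tested. Alpha subunits (6 of 7), ATPases (5 of 6), the 3 catalytic subunits (3 of 3) and non-ATPase subunits (8 of 11) supplied most of the calls. The immunoproteasome members supplied none of them, with changes of 0.46 to 0.88.

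PSMD1, the large scaffold subunit of the 19S base, had levels of 1.55 and 2.68 in WT free, 1.06 and 3.50 in WT mono, and 13.2 and 45.9 in WT poly. Its poly libraries lay above its free and mono libraries, but they differed from each other by more than 3 times. The change from free to poly was 3.80 ± 0.70 (adjusted p = 0.00456). PSMC6, an ATPase, had levels of 0.428 and 0.503 in WT free and 2.57 and 5.08 in WT poly, with no overlap (change 3.03 ± 0.59, adjusted p = 0.00554). PSMA2, an alpha subunit, had levels of 9.0 and 6.15 in WT free and 52.3 and 69.9 in WT poly (change 3.01 ± 0.55, adjusted p = 0.00419).

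The catalytic subunits moved alike. PSMB5, the chymotrypsin-like site that proteasome inhibitors block, had levels of 142.2 and 103.5 in WT free and 422.2 and 331.5 in WT poly (change 1.62 ± 0.40, adjusted p = 0.0160). PSMB6 rose by 1.82 ± 0.36 (adjusted p = 0.00620) and PSMB7 by 2.45 ± 0.37 (adjusted p = 0.00220), with no overlap between free and poly libraries in either. At the other end, PSMG3, a core assembly chaperone, had levels of 340.9 and 199 in WT free and 78.9 and 69.7 in WT poly, and was the 1 member that fell (change -1.86 ± 0.59, adjusted p = 0.0439). Leaving out WT replicate 1 left 10 members higher and leaving out WT replicate 2 left 8, with 0 lower in both. Each WT fraction then had a single library, which was assumed to vary like the other groups.

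Against monoribosomal RNA the members split. In WT, 12 of 45 were higher in poly than in mono (11.0% of all genes tested were) and 3 were lower (9.68% of all genes were), with a median change of 0.60 against -0.04 over all genes tested. The 12 were 7 of 11 non-ATPase subunits of the 19S regulator, 3 of 6 ATPases, the 19S chaperone PSMD5 and the activator PSME4. No alpha subunit and no catalytic subunit was called. The 3 that fell were the core assembly chaperones PSMG3 and PSMG4 and the inducible catalytic subunit PSMB10.

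PSMD1 showed the largest rise from mono to poly in WT (3.70 ± 0.70, adjusted p = 0.00573). PSME4, the large single-chain activator PA200, had levels of 0.415 and 1.58 in WT mono and 3.0 and 7.41 in WT poly (change 2.39 ± 0.69, adjusted p = 0.0316). PSMD3, a lid subunit, had levels of 25.2 and 12.9 in WT mono and 105.5 and 92.2 in WT poly (change 2.38 ± 0.56, adjusted p = 0.0134). These genes encode some of the longest proteins of the set. PSMG3 had levels of 399.9 and 354.9 in WT mono, about 5 times those in poly given above (change -2.34 ± 0.60, adjusted p = 0.0192). PSMB10 had levels of 229.3 and 258.4 in WT mono and 76.4 and 63.5 in WT poly (change -1.80 ± 0.39, adjusted p = 0.00934). PSMG4, the partner of PSMG3, had levels of 146.8 and 168.3 in WT mono and 54.8 and 44.8 in WT poly (change -1.66 ± 0.43, adjusted p = 0.0197).

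The same division was measured in the knockout. In CBFB_KO, 13 of 45 members were higher in poly than in mono (8.20% of all genes tested were) and 3 were lower (8.66% of all genes were), with a median change of 0.66 against -0.07 over all genes tested. The rises came from 9 of 11 non-ATPase subunits, 2 of 6 ATPases, PSMD5 and PSME4, and the falls again from PSMG3, PSMG4 and PSMB10. PSMD1 had levels of 1.49 and 2.44 in CBFB_KO mono and 21.9 and 21.1 in CBFB_KO poly (change 3.46 ± 0.70, adjusted p = 0.0100). PSME4 rose by 2.40 ± 0.70 (adjusted p = 0.0373) and PSMD14, the deubiquitinase of the lid, by 2.23 ± 0.58 (adjusted p = 0.0242). PSMG3 had levels of 454 and 554.7 in CBFB_KO mono and 101.5 and 102 in CBFB_KO poly (change -2.31 ± 0.60, adjusted p = 0.0247), PSMB10 fell by 2.05 ± 0.39 on the log2 scale (adjusted p = 0.00854) and PSMG4 by 1.65 ± 0.43 (adjusted p = 0.0245). For all 3 the mono libraries lay above the poly libraries in both genotypes.

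These poly to mono calls rested on both gradients and on the scaling. Without WT replicate 1 or 2, 1 and 0 members were higher in WT and 0 were lower. In CBFB_KO, 0 were called in either direction without replicate 1, without replicate 2, or with the CBFB_KO poly pair counted as 1 sample, although no member named here changed direction. With library size alone in place of TMM factors, all genes tested shifted by 0.85 in WT and 0.90 in CBFB_KO, and 19 and 21 members were higher with 0 lower. The members' median stayed 0.69 (WT) and 0.80 (CBFB_KO) above that of all genes.

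The change between mono and poly followed coding length within the set. The principal transcript codes for 122 codons in PSMG3 and 123 in PSMG4, and for 953 in PSMD1, 908 in PSMD2 and 1843 in PSME4, with a median of 273 codons over the 45 members. Of the 22 members above that median, 12 in WT and 13 in CBFB_KO were higher in poly than in mono, and 0 were lower. Among all genes tested of that length, 17.2% in WT and 12.8% in CBFB_KO were higher, and 2.84% and 2.49% were lower. Of the 23 at or below it, 0 were higher and 3 were lower in both genotypes. Among all genes tested of that length, 1.09% and 1.12% were higher, and 26.6% and 24.2% were lower. The members' median change was 1.52 (WT) and 1.61 (CBFB_KO) in the longer part and -0.02 and 0.02 in the shorter part. Among all genes tested with an annotated coding length, those of 273 codons or fewer had a median of -1.01 in WT and -1.02 in CBFB_KO (n = 3122), and longer ones 0.57 and 0.49 (n = 9922). Both the longer and the shorter members thus had higher medians than all genes of the same range of coding length, a difference that was not tested.

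Across the 45 members, the change from mono to poly had a Spearman's rho of 0.74 with coding length in WT and 0.75 in CBFB_KO. Over the 13044 genes tested with a coding length, rho was 0.50 and 0.48. The gene length that RSEM estimated (not the effective length), which is related to coding length, gave a rho of 0.65 and 0.69 over the members. Over the 16275 genes tested it gave 0.50 and 0.52. With the GC content of the transcript, rho over the members was -0.16 in WT and -0.29 in CBFB_KO, and with the length of the 5′ untranslated region -0.06 and -0.09. These values are descriptions across genes, which share the same 12 libraries and are not independent replicates. PSMB2, a beta subunit of 201 codons on a transcript of 2701 bases, had levels of 147.1 and 181 in WT mono and 99 and 74.1 in WT poly, a difference that did not pass the test. PSMB10, of 273 codons, fell, while PSMB8, of 276 codons, had changes of 0.29 in WT and 0.16 in CBFB_KO, neither called. With an offset for the trend of counts with gene length, 19 members in WT and 22 in CBFB_KO were higher and 1 was lower in each.

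**Figure D3:**
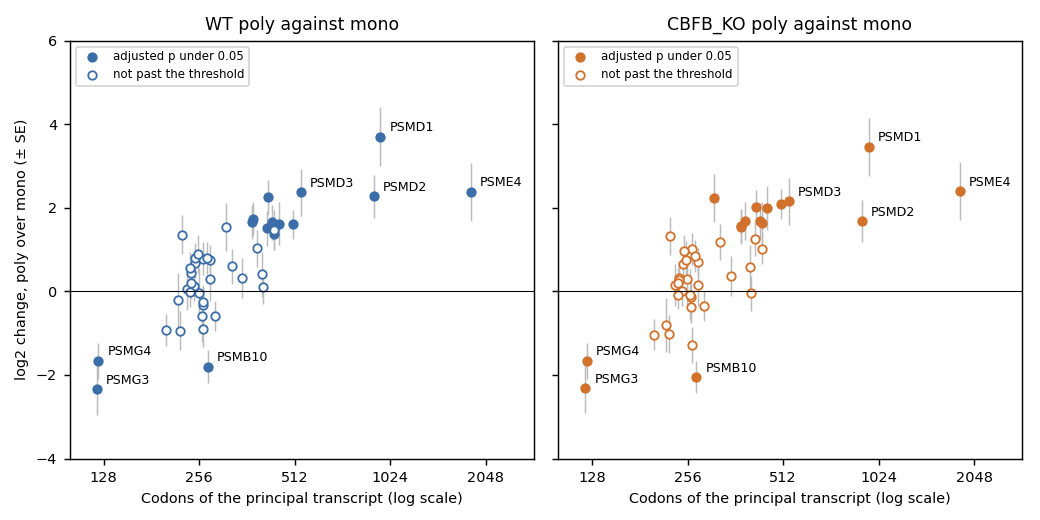
Change from mono to poly (log2, vertical axis, bars are standard errors) against the number of codons of the principal transcript (horizontal axis, log scale) for 45 proteasome mRNAs, in WT (left) and CBFB_KO (right), each point 1 gene fitted from 2 libraries per fraction. Filled points passed an adjusted p of 0.05. PSMG3 and PSMG4 lie below 0 at the left, at 122 and 123 codons, and PSMD1 lies highest at 953 codons, in both genotypes.

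In the knockout, proteasome mRNAs were also mostly at a higher level in poly than in free RNA. In CBFB_KO, 26 of 45 were higher (14.6% of all genes tested were) and 3 were lower (16.7% of all genes were), with a median of 1.36 against -0.12 over all genes tested. The 3 catalytic, 3 immunoproteasome and 3 other beta subunits were all among the 26. Alpha subunits gave 4 calls of 7 and non-ATPase subunits 5 higher and 1 lower of 11. PSMD11, PSME3 and PSMD5 fell. Of the 23 members with 273 codons or fewer, 15 were higher and 1 lower, against 28.5% and 10.6% of all genes of that length. Of the 22 longer members, 11 were higher and 2 lower, against 13.4% and 20.1% of all longer genes.

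PSMB9, the inducible counterpart of PSMB6, had levels of 0.437 and 0.173 in CBFB_KO free and 5.18 and 5.00 in CBFB_KO poly (change 3.90 ± 0.82, adjusted p = 0.00513). It had only 6 and 1 counts in CBFB_KO free, so its values there lie near the floor. PSMB5 had levels of 67.8 and 39.0 in CBFB_KO free and 385.5 and 389.3 in CBFB_KO poly (change 2.86 ± 0.42, adjusted p = 7.00e-04). PSMB6 rose by 2.72 ± 0.37 (adjusted p = 5.25e-04) and PSMB7 by 2.36 ± 0.37 (adjusted p = 0.00103). The free and poly libraries did not overlap for any of these. PSMB8 rose by 2.62 ± 0.55 (adjusted p = 0.00489) and PSMB10 by 2.52 ± 0.40 (adjusted p = 0.00115). PSMD11, a lid subunit whose phosphorylation is known to raise proteasome activity, went the other way, with levels of 96.6 and 82.7 in CBFB_KO free, 4.58 and 4.76 in CBFB_KO mono and 18.7 and 19 in CBFB_KO poly (change from free to poly -2.25 ± 0.42, adjusted p = 0.00272). PSME3, the nuclear activator PA28 gamma, had levels of 479.6 and 342.5 in CBFB_KO free and 101.5 and 97.6 in CBFB_KO poly (change -2.04 ± 0.48, adjusted p = 0.00820). PSMD5 had levels of 12.7 and 12.9 in CBFB_KO free and 4.27 and 4.36 in CBFB_KO poly (change -1.57 ± 0.35, adjusted p = 0.00672).

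The library with the fewest counts outside the mitochondrial genome, CBFB_KO free replicate 2, bore on this comparison. Without that library alone, 20 members were higher and 3 lower. Without all fractions of CBFB_KO replicate 2, 3 were higher and 0 lower, and without CBFB_KO replicate 1, 19 and 0. With library size alone the split was 40 higher and 0 lower, all genes tested shifted by 2.17, and PSMD5 and PSME3 changed sign (0.67 and 0.10), neither called.

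Between genotypes, no proteasome mRNA passed the test in the poly or mono fraction. In poly, 0 of 45 members were called in CBFB_KO against WT by edgeR (0.190% of all genes tested were called in either direction), 0 had an unadjusted p under 0.05, and DESeq2 also called 0. Changes in poly ran from -0.56 for PSMD2 (SE 0.50) to 0.60 for PSMB9 (SE 0.65), with a median of 0.01. In mono, edgeR called 0 of 45 (0.147% of all genes tested were called), 1 had an unadjusted p under 0.05, and DESeq2 called 0. That 1 was PSMD5, with levels of 1.58 and 1.93 in WT mono and 0.885 and 1.16 in CBFB_KO mono (change -0.78 ± 0.35, adjusted p = 1.0), the lowest change of the set. The highest change in mono was that of PSMB9, with levels of 3.59 and 4.14 in WT and 8.66 and 9.08 in CBFB_KO. Its groups did not overlap, but the change of 1.20 ± 0.66 did not pass the test (adjusted p = 1.0). The poly to mono ratio differed between genotypes for 0 of 45 members (0% of all genes tested), with 0 at an unadjusted p under 0.05 and 0 by DESeq2, and with changes from -0.60 (PSMB9) to 0.69 (PSMD14). Standard errors of the 45 members ran from 0.34 to 0.68 in mono and poly, so differences of that size were not detectable in this fit. Larger ones, such as those of PSMD5 and PSMB9 in mono, did not pass the test either. These errors rest on 2 libraries per group and on a spread estimated over all 12 libraries, the free ones included. The members' mean chi-square between replicates was 231.1 in WT free and 339.1 in CBFB_KO free, against 145.5 and 83 in mono and 195.2 and 1.78 in poly. Fits of the mono or poly libraries alone also called 0 of 45. The lack of calls therefore does not exclude such differences.

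**Figure D4:**
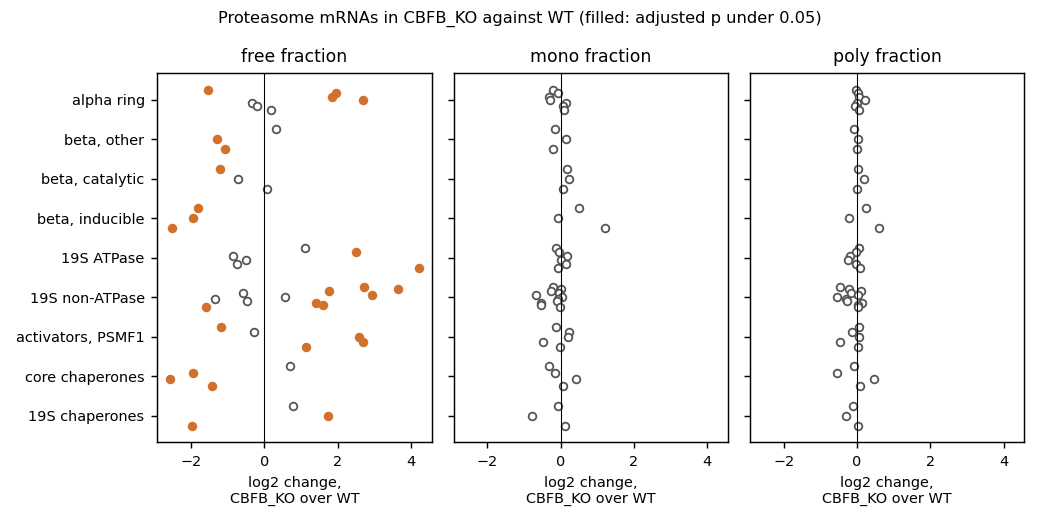
Change in CBFB_KO against WT (log2, horizontal axis) of 45 proteasome mRNAs by role (vertical axis) in the free, mono and poly fractions. Each point is 1 gene fitted from 2 libraries per group, filled where the adjusted p was under 0.05. Points spread from -2.58 to 4.23 in free, with 28 filled, and lie between -0.78 and 1.20 in mono and between -0.56 and 0.60 in poly, with 0 filled.

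The free fraction differed widely between genotypes, in both directions. In CBFB_KO against WT free RNA, 15 of 45 members were higher (24.2% of all genes tested were) and 13 were lower (18.1% of all genes were), with a median of -0.20 against 0.04 over all genes tested. The members' shares were thus 33.3% and 28.9%. With the offset for gene length the members' median turned to 0.54 (all genes -0.13), and with library size alone it was -1.89 (all genes -1.57). By role, 6 of 11 non-ATPase subunits were higher and 1 lower, and 3 of 5 activators or inhibitors were higher and 1 lower. The core beta subunits went one way where they were called. All 3 immunoproteasome members, 1 of 3 catalytic subunits and 2 of the 3 other beta subunits were lower, and none of these 9 was called higher. Of the 4 core assembly chaperones, 3 were lower. Among all genes tested the direction also differed by coding length. Of those with 273 codons or fewer, 37.0% were lower and 11.4% higher. Of longer ones, 12.9% were lower and 32.1% higher. The 9 beta subunits code for 201 to 277 codons, and the part of coding length in their direction was not tested.

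Among the members that rose, PSMC6 had levels of 0.428 and 0.503 in WT free and 5.49 and 12.1 in CBFB_KO free (change 4.23 ± 0.62, adjusted p = 6.62e-04). PSMD11 had levels of 4.57 and 9.76 in WT free and 96.6 and 82.7 in CBFB_KO free (change 3.64 ± 0.45, adjusted p = 2.35e-04). PSMD14 had levels of 1.79 and 1.40 in WT free and 10.5 and 14.2 in CBFB_KO free (change 2.95 ± 0.60, adjusted p = 0.00394). The knockout libraries lay above the WT libraries for all 3. In TMM-scaled levels, PSMD11 and PSME3 were higher in CBFB_KO free than in any other library of the series. This order depended on the scaling. With library size alone, the change of PSME3 from CBFB_KO free to poly was 0.10, and over the alternative fits that of PSMD11 reached -0.06.

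Among those that fell, PSMG3 had levels of 340.9 and 199 in WT free and 73.8 and 16 in CBFB_KO free (change -2.58 ± 0.61, adjusted p = 0.00816). PSMB9 had levels of 3.30 and 0.639 in WT free and 0.437 and 0.173 in CBFB_KO free (change -2.53 ± 0.81, adjusted p = 0.0293), and both of its groups varied by more than 2 times within themselves. Its counts there were 135 and 29 in WT and 6 and 1 in CBFB_KO. With samples left out, its change ran from -3.48 to -0.88. PSMD9, a 19S assembly chaperone, had levels of 104 and 62.9 in WT free and 30.3 and 12.3 in CBFB_KO free (change -1.97 ± 0.47, adjusted p = 0.00906). PSMB8 and PSMB10, the other inducible catalytic subunits, fell by 1.96 ± 0.54 on the log2 scale (adjusted p = 0.0156) and by 1.81 ± 0.39 (adjusted p = 0.00562). PSMB5 fell by 1.20 ± 0.39 on the log2 scale (adjusted p = 0.0317).

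**Figure D5:**
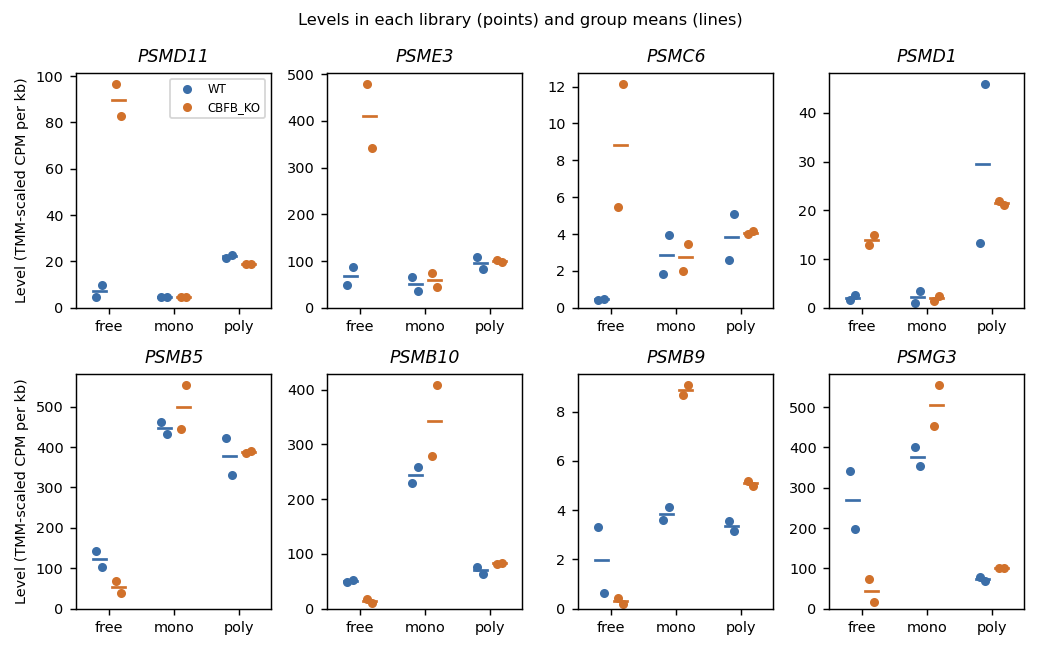
Levels (vertical axis, TMM-scaled CPM per kilobase, from 0) of 8 proteasome mRNAs in the free, mono and poly fractions (horizontal axis), with each of the 2 libraries per group as a point and the group mean as a line, blue for WT and orange for CBFB_KO. PSMD11, PSME3 and PSMC6 stand apart only in CBFB_KO free, PSMB10 and PSMG3 peak in mono in both genotypes, and PSMB5 is lowest in free, with CBFB_KO below WT.

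Several measured properties moved with the free comparison. The 2 CBFB_KO free libraries had the highest mitochondrial shares of the series and the fewest counts on other genes, as given above. Over the 45 members the change had a Spearman's rho of -0.71 with the GC content of the transcript and 0.41 with coding length, and over all genes tested -0.47 and 0.40. PSMC6 has a transcript GC content of 36.8%, against 58.8% for PSMG3 and 60.1% for PSMB10. A fit without the mitochondrial genes gave 15 members higher and 13 lower, and an offset for gene length 18 and 7. The part of depth and GC content in the free comparison was not tested.

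The split of calls in the free fraction depended on the scaling and on which libraries were fitted. With library size alone, all genes tested shifted by -1.60, 2 members were higher (PSMC6 and PSMD11) and 26 lower. Fitting only the 4 free libraries left 6 higher and 0 lower. Without CBFB_KO replicate 2, 5 were higher and 0 lower, without its free library alone 9 and 5, without WT replicate 1, 9 and 1, and without WT replicate 2, 10 and 12. PSMC6 and PSMD11 were called higher in every one of these fits.

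The poly to free ratio differed between genotypes for 10 members. In CBFB_KO against WT, 2 of 45 had a higher ratio (4.10% of all genes tested had) and 8 a lower ratio (14.3% of all genes had), with a median of 0.15 against -0.10 over all genes tested. The members' shares were 4.44% and 17.8%, and the sign of their median was not stable. It was -0.78 with the offset for gene length (all genes 0.13), -0.18 without WT replicate 1, -0.11 without CBFB_KO replicate 2 and -0.11 without its free library alone. These ratios share their free libraries with the comparison above, and none of the poly levels behind them passed the test between genotypes. PSMC6 had the lowest difference of the ratio between genotypes (-4.14 ± 0.80, adjusted p = 0.00588), followed by PSMD11 (-3.88 ± 0.59, adjusted p = 0.00166) and PSMD1 (-3.17 ± 0.91, adjusted p = 0.0349). PSMG3 (3.04 ± 0.83, adjusted p = 0.0286) and PSMB10 (2.06 ± 0.54, adjusted p = 0.0247) were the 2 called with a higher ratio in CBFB_KO than in WT. PSMB9 had the highest difference of the set, 3.13 ± 1.04, which did not pass the test (adjusted p = 0.0572) and rested on its low counts in free. With library size alone, 15 members had a higher ratio and 1 a lower one. DESeq2 called 10 in each direction. With the CBFB_KO poly pair counted as 1 sample, 2 members stayed lower and 0 higher, and without CBFB_KO replicate 2, 1 and 0. Without WT replicate 2, 1 was higher and 4 lower, without WT replicate 1, 0 and 8, and without CBFB_KO replicate 1, 5 and 3.

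A list of 28 genes that work with the proteasome was read beside the members. It holds 19S-associated proteins, ubiquitin genes, shuttle factors and the factors that control proteasome transcription, and all 28 were tested. From mono to poly, 7 were higher and 4 lower in WT (11.0% and 9.68% of all genes tested), and 6 and 4 in CBFB_KO (8.20% and 8.66%). VCP, the unfolding ATPase upstream of the proteasome, rose by 3.17 in WT (adjusted p = 0.00365) and 2.79 in CBFB_KO (adjusted p = 0.00674). RPS27A, which encodes ubiquitin fused to a ribosomal protein, fell by 2.03 on the log2 scale in WT (adjusted p = 0.0141) and by 1.75 in CBFB_KO (adjusted p = 0.0300), and SEM1, the smallest lid subunit, by 1.92 in WT (adjusted p = 0.0134) and by 1.63 in CBFB_KO (adjusted p = 0.0314). From free to poly, 7 were higher and 2 lower in WT (14.0% and 7.99% of all genes), and 6 and 5 in CBFB_KO (14.6% and 16.7%). In CBFB_KO against WT, 13 were higher and 4 lower in free (24.2% and 18.1% of all genes), and 0 were called in mono or poly. UBQLN2, a shuttle factor, was higher in CBFB_KO free by 4.60 (adjusted p = 4.37e-04), and UBB, a polyubiquitin gene, was lower by a change of -1.96 (adjusted p = 0.00570). ECPAS, a proteasome adaptor, was also called higher there (adjusted p = 0.00760), but its level was 0 in at least 1 library, so no fold is given. The poly to free ratio was lower in CBFB_KO for 7 of the 28 (14.3% of all genes) and higher for 0 (4.10%), and the poly to mono ratio differed for 0.

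Some members share reads or sequence with neighbours, and their values are less certain. PSMA3-AS1, antisense to PSMA3, had counts of 6.06% to 93.3% of those of PSMA3, and PSMB8-AS1 of 2.40% to 16.7% of those of PSMB8. PSMG3-AS1 had 0.738% to 10.6% of those of PSMG3. Whether counting used strand is not given in the sources used here. Of 43 pseudogenes of the members, 27 had 0 counts in all libraries and 3 exceeded 5% of their parent's count in any library. A second identifier in the tables carries transcripts that GENCODE 29 assigns to PSMG2, a core assembly chaperone, with counts of 12.1% to 178.1% of those of PSMG2, so the level of PSMG2 is incomplete here.

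Proteasome genes are known to be induced together through antioxidant response elements bound by NFE2L1 and NFE2L2. Promoters from RefSeq (GRCh38.p14), 250 bases before to 50 after the start, were found for 41 members. The core of this element (TGACNNNGC, searched on both strands) was present in 12 of 41, or 29.3%, against 13.6% of 27305 promoters. The CCAAT box was present in 18 of 41 (43.9%, against 35.7% of all) and the palindrome of nuclear respiratory factor 1 in 5 (12.2%, against 6.29%). A match is a description of letters and not a binding site. The windows of 4 members, chosen with their values known because those are described above, are shown in the direction of the gene, with the match in capitals:
PSMB9, chr6:32854036-32854063: gcggggctGCCTCGTCActtgtctcggg
PSMD3, chr17:39980762-39980789: ccctttgtTGACTCGGCcatcggcctgc
PSMD5, chr9:120843037-120843064: gctacagtTGACACGGCcctaacggagg
PSME4, chr2:53971008-53971035: cggcggctGCAGCGTCAccagcagagcc
In PSMB9 and PSME4 the match lies on the opposite strand. Members with a match rose as well as fell in the free comparison, as PSME4 and PSMD5 (higher) and PSMB9 (lower) show.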

How the data were processed

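RNA of sucrose gradient fractions was sequenced from 12 libraries, 2 for each of 6 groups taken from the labels. The labels name a TruSeq mRNA kit, while the study's methods speak of rRNA removal, so how mRNA was selected is uncertain. The authors deposited, per library, a gene table of expected counts that RSEM estimated, with TPM and FPKM columns that were not used. Trimmomatic, STAR, RSEM and the build hg19 are named in the submitters' processing notes, and their versions are not given in the sources used here. Expected counts were rounded to whole numbers, filtered with filterByExpr, scaled by TMM and fitted in 1 model over all groups with edgeR 4.0.16 (quasi-likelihood test, R 4.3.3), with Benjamini-Hochberg adjustment over all 16275 genes tested. A call is an adjusted p under 0.05. Every adjusted p in the text comes from this test, and each standard error was taken from the F statistic and the estimated change. The steps were tried on simulated counts for the free comparison, with the same mean profile and spread in every library apart from the genes raised. The simulation lacked the differences in composition and replicate spread of these libraries, so it cannot show how the test behaves under them.

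Of 56632 gene identifiers, 49995 matched a symbol. Coding lengths come from the principal transcripts of GENCODE 29 and promoters from RefSeq. Coordinates of genes are not given, since the files and the annotation use different builds. Members and lists were chosen with earlier results of these data known. Test values are given for the catalytic and inducible core subunits, for up to 3 called members per direction with the largest change, and for the lowest and highest change in each comparison. Of the associated list, examples are among the up to 2 called genes per direction with the largest change in a comparison. A count of 0 allows up to 3 counts, and this limit covers counting error only. Alternatives were RLE size factors, no TMM factors, DESeq2 1.42.0, no filter, replicate and gradient blocks, a length offset (lowess span 0.3), no mitochondrial genes, single fractions, the CBFB_KO poly pair as 1 sample, and each replicate left out.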

Additional observations from a re-analysis of the deposited data

Results flagged for a closer look

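The poly to free ratio differed between WT and CBFB_KO by a test of the interaction itself (edgeR's quasi-likelihood test, Benjamini-Hochberg adjusted), which is why it is listed here. It was lower in CBFB_KO for 8 of 45 members (17.8%, against 14.3% of all genes tested) and higher for 2 (4.44%, against 4.10%), shares close to those of all genes. PSMC6 (-4.14), PSMD11 (-3.88) and PSMD1 (-3.17) had the lowest log2 differences, and PSMG3 (3.04) and PSMB10 (2.06) the highest called ones. The CBFB_KO free libraries on which these values rest had 71.6% and 87.2% mitochondrial counts. A fit without the mitochondrial genes gave the same counts, 8 lower and 2 higher. That fit leaves the low depth of those libraries on other genes as it was, and the part of depth was not tested.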

How the results depend on the processing

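Counts below are members higher and lower. With library size alone, they were 30 and 0 for WT poly against free, 19 and 0 for WT poly against mono, 40 and 0 for CBFB_KO poly against free, 21 and 0 for CBFB_KO poly against mono, 2 and 26 for CBFB_KO against WT in free, and 15 and 1 for the poly to free ratio. In CBFB_KO poly against free it also turned PSMD5 (0.67, adjusted p = 0.26) and PSME3 (0.10, adjusted p = 0.91) to positive changes. With the length offset they were 19 and 1 (WT poly against mono), 22 and 1 (CBFB_KO poly against mono), and 18 and 7 (free). DESeq2 gave 2 lower in WT poly against free, 6 lower in CBFB_KO poly against mono and 10 higher ratios. RLE size factors gave 2 lower in WT poly against free. Without the filter, 4 ratios were higher. The CBFB_KO poly pair as 1 sample gave 0 lower in both poly against free comparisons, 0 and 0 in CBFB_KO poly against mono, and 0 and 2 ratios. Only the free libraries gave 6 and 0.

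Leaving out 1 replicate at a time, where the lone sample was assumed to vary like the other groups, gave 8 to 28 higher and 0 to 1 lower for WT poly against free, 0 to 12 and 0 to 3 for WT poly against mono, 3 to 27 and 0 to 3 for CBFB_KO poly against free, 0 to 16 and 0 to 3 for CBFB_KO poly against mono, 5 to 14 and 0 to 12 for free, and 0 to 5 and 1 to 8 for the ratio. Leaving out only CBFB_KO free replicate 2, chosen after seeing the data, gave 20 and 3 (CBFB_KO poly against free), 9 and 5 (free), and 2 and 5 (ratio).

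Same-numbered WT and CBFB_KO libraries correlated at 0.061 in free, 0.179 in mono and 0.006 in poly (deviations from group means), so the numbers were not taken to pair them. With the replicate block the counts were 29 and 1, 15 and 3, 25 and 3, 15 and 3, 15 and 14, and 3 and 9 in the order above, and no named value lost its call. The gradient as block gave 0 lower in WT poly against free. Comparisons of genotypes in mono and poly, and the poly to mono ratio, had 0 calls under every alternative run. Each named value was counted once per alternative fit. Of these combinations, 541 kept direction and side of the threshold, 114 lost the call, 4 gained it (PSMB9's ratio in each) and 2 reversed. The combinations share the same libraries and are not independent.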
